A study of Mus musculus with 37 samples.

Results

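Mammary glands of mice without PTP1B were compared with wild-type glands on day 15 of pregnancy, across all genes measured. The comparison rests on the 8 arrays whose labels give this stage, 4 KO and 4 WT, of 37 arrays in the series. KO mice were PTP1B-/-, with the allele bred onto the FVB strain through at least 7 generations of backcrossing, and WT mice were PTP1B wild type on the FVB strain. Females of both genotypes were mated at 12 weeks of age, pregnancy was dated from the vaginal plug, and neither genotype was treated. The knockout is a germline one, so it is not restricted to any cell type of the gland. The tissue is given as mammary gland, with no sorting of cells mentioned, and 100 ng of total RNA per sample was amplified and hybridised to a whole-transcript Affymetrix array. The other 29 arrays hold both genotypes in nulliparous oestrus (P0) and on pregnancy days 3, 7 and 10. Nothing says whether the 4 samples of a group came from separate mice, so the spread within groups behind the p-values may be technical. That spread is pooled over the genotype and stage groups of all 37 arrays. No date, scan or batch is given in the sources used here. The protocol text names collection on days 3, 7 and 10, while day 15 stands in the sample titles and in the stage field.

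PTP1B, the product of Ptpn1, is a protein tyrosine phosphatase anchored on the endoplasmic reticulum. It removes phosphate from the insulin receptor, from JAK2 below the leptin receptor and from growth factor receptors such as those for PDGF and EGF. In the pregnant gland, prolactin acts through JAK2 and STAT5 to form milk-secreting alveoli, which make casein mRNA and lipid droplets well before birth. The alveoli grow into a pad of adipocytes and are wrapped in myoepithelial cells, basement membrane and collagen-producing fibroblasts, and a whole-gland array measures all of these together.

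Values are the deposited log2 intensities, and the 4 values of a group are given in the order of the labelled replicates 1 to 4. Array medians ran from 6.65 to 6.79 at day 15. Differences are KO minus WT on the log2 scale with their standard error (SE), from a limma fit over all 37 arrays with 1 mean per group, and a gene is said to have risen, fallen or changed where its Benjamini-Hochberg adjusted p over 16865 genes was under 0.05. Csn2, the beta-casein gene, stood near the top of the scale on all 8 arrays, at 13.46, 13.43, 13.51 and 13.46 in KO glands, against 13.44, 13.47, 13.45 and 13.57 in WT glands. The 20 pan-epithelial markers tested, such as Krt8 and Krt18, averaged between 0.50 and 0.57 above their mean over all arrays in KO glands and between 0.49 and 0.70 in WT glands. Both genotypes thus carried the genes of secretory epithelium on every array.

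The targeted gene was low on 3 of the 4 KO arrays. Ptpn1 had log2 intensities of 5.71, 5.40, 8.68 and 5.36 in KO glands, against 8.62, 8.02, 8.94 and 8.50 in WT glands. The array labelled KO replicate 3 lay within the WT range of 8.02 to 8.94, so its Ptpn1 level goes against its label. The difference was -2.23 ± 0.40 (SE), adjusted p = 0.00044, and without that array it was -3.03 ± 0.21 (SE), adjusted p = 7.47e-11. At P0 and on days 3, 7 and 10 it was -2.91, -2.90, -2.78 and -2.72. Counts over the gene lists are therefore also given without the array labelled KO replicate 3 where they differ. Over all genes, 1496 of the 1873 called with all arrays were also called without it. Of the 105 genes called among those named by rule, 103 were also called without it, and Igfbp4 and Hp were not. Some of these named genes were chosen from the fit without it, so their share was partly fixed by the choice.

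Away from Ptpn1 the array labelled KO replicate 3 was intermediate over the genes called without it. Of the 1781 genes called without it, it lay nearer the mean of the other 3 KO arrays than the WT mean for 1224 (68.7%), and inside the WT range for 367 (20.6%). The same count for KO replicates 1, 2 and 4, each against the genes called without it, was 89.6%, 94% and 87.7%. Its median position, on a scale where the WT mean is 0 and the mean of the other KO arrays is 1, was 0.73, against 0.89, 0.94 and 0.91 for KO replicates 1, 2 and 4. Correlations over all genes were also taken after removing each gene's mean over the day 15 arrays. The array labelled KO replicate 3 stood at -0.011, 0.062 and -0.078 with KO replicates 1, 2 and 4, which correlated with each other at 0.312 to 0.456. With WT replicates 1 to 4 it stood at -0.076, -0.398, -0.078 and -0.574.

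**Figure D1:**
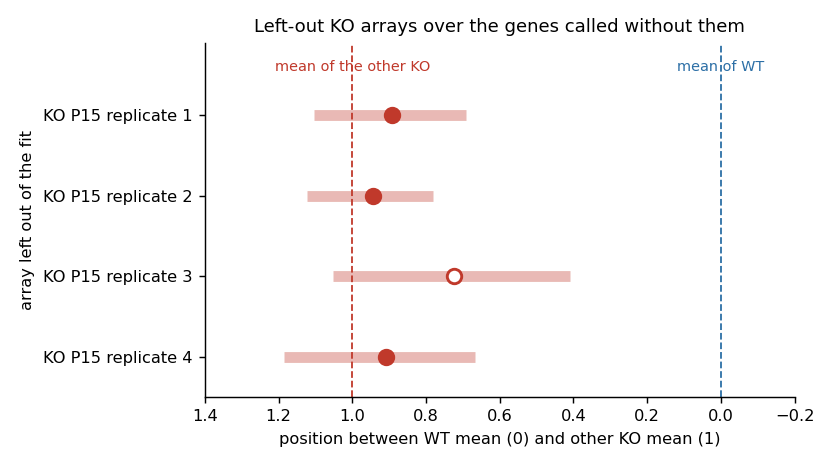
Each KO day 15 array placed between the WT mean (0) and the mean of the other 3 KO arrays (1), over the genes called in the fit without it; points are medians over those genes, bars run between the quartiles, and the open point is the array labelled KO replicate 3. That array has the lowest median, 0.73, while the other 3 lie between 0.89 and 0.94.

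At day 15, 1873 of 16865 genes changed (11.1%), with 1143 higher (6.78%) and 730 lower (4.33%) in KO glands. A further share passed before adjustment, since 4013 genes had an unadjusted p under 0.05. Without the array labelled KO replicate 3 the count was 1781 (10.6%), with 1075 higher (6.37%) and 706 lower (4.19%), and 1496 genes were called both ways. The KO arrays lay wholly above the WT arrays for 10.6% of genes and wholly below for 8.49%, which became 14.4% and 12.2% without that array. The split of the calls depends on scaling: 61% of them were higher in KO glands on the deposited scale and 87.3% after each array was centred on its median. The number of lower genes moved by over 1.5 times when 1 array was left out, to 471 for WT replicate 3, 485 for KO replicate 1 and 422 for KO replicate 4. The median difference over all genes was 0.01. Unless a sentence says otherwise, each gene named below as changed passed the test in each of the 8 fits that left out 1 day 15 array.

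Saa2, which encodes an acute phase serum amyloid A, had the largest rise among named genes whose groups did not overlap. It had log2 intensities of 8.70, 6.79, 6.07 and 9.88 in KO glands, against 4.58, 5.30, 3.94 and 5.21 in WT glands, a difference of 3.10 ± 0.48 (SE), adjusted p = 0.0001. WT replicates 1 and 3 lay under the intensity filter of 4.96 and the other WT arrays just above it, so the size of this difference rests on values at the dim end of the scale. KO replicates 1 and 4 were the highest, and the lowest KO array still lay above the highest WT array. The largest fall after Ptpn1 was in Sfrp4, a secreted antagonist of Wnt ligands, at 4.94, 5.52, 5.81 and 5.31 in KO glands, against 7.35, 7.38, 7.81 and 7.32 in WT glands. Its difference was -2.07 ± 0.51 (SE), adjusted p = 0.00738, the groups lay far apart, and KO replicate 1 was under that filter value. Both genes were called without the array labelled KO replicate 3, Saa2 at 3.70 ± 0.44 (SE), adjusted p = 1.54e-05 and Sfrp4 at -2.21 ± 0.56 (SE), adjusted p = 0.00974.

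**Figure D2:**
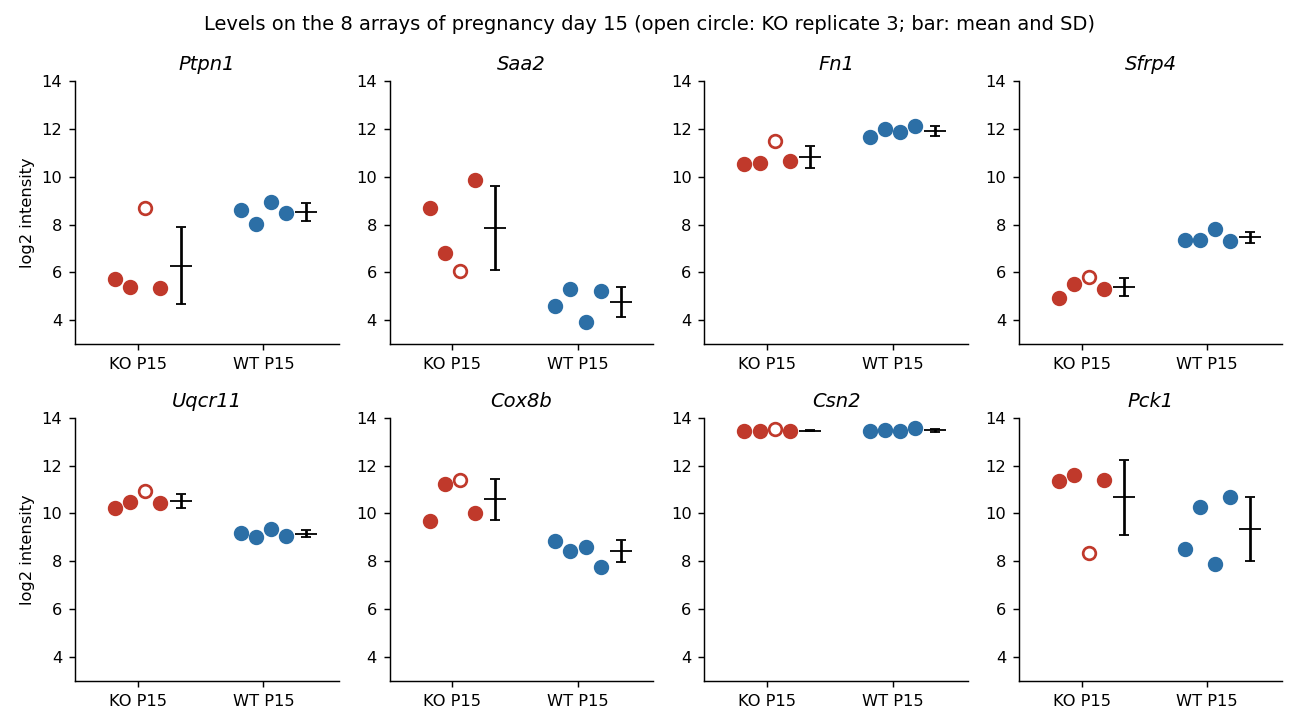
Log2 intensity of 8 genes on each day 15 array, KO left of WT, with bars for the group mean and SD; the open circle is the array labelled KO replicate 3. In Ptpn1 and Pck1 the open circle lies with WT arrays, and in Saa2, Sfrp4, Uqcr11 and Cox8b it lies on the KO side. In Fn1 it lies below all WT arrays but nearer to them than to the other KO arrays. Csn2 has all 8 arrays between 13.43 and 13.57.

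Few genes of the signalling pathways that PTP1B acts on passed the test, and those that did were lower in KO glands. Of 31 tested protein tyrosine phosphatases only Ptpn1 was called. Of 16 genes of prolactin and STAT5 signalling none was called, and their median difference was 0.01. Jak2, the kinase bound to the prolactin and leptin receptors, had a difference of 0.02 ± 0.11 (SE), adjusted p = 0.958, and Stat5a, the transcription factor it phosphorylates, one of 0.10 ± 0.10 (SE), adjusted p = 0.65. Socs2 and Cish, feedback inhibitors that STAT5 induces, had differences of 0.11 ± 0.15 (SE), adjusted p = 0.731, and 0.32 ± 0.28 (SE), adjusted p = 0.567.

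Of 24 genes of insulin, IGF and leptin signalling, 3 fell and none rose (12.5% lower, against 4.33% of all genes), with a median of -0.10, and 2 fell without the array labelled KO replicate 3. Igfbp6, a secreted protein that binds IGF2, had log2 intensities of 8.01, 7.95, 8.21 and 7.73 in KO glands, against 9.36, 9.58, 9.34 and 9.58 in WT glands. All 4 KO arrays lay more than 1 log2 unit under the lowest WT array, with a difference of -1.49 ± 0.28 (SE), adjusted p = 0.000648. Grb10, an adaptor that restrains the insulin and IGF1 receptors, had 8.81, 8.40, 8.94 and 8.48 in KO glands, against 9.35, 9.13, 9.30 and 9.28 in WT glands. Its difference was smaller, -0.61 ± 0.14 (SE), adjusted p = 0.00335, and again the groups did not overlap. Igfbp4, another IGF-binding protein, had a difference of -0.48 ± 0.14 (SE), adjusted p = 0.0252, but its call was lost without WT replicate 1 or 4 or without the array labelled KO replicate 3 or KO replicate 4, with an adjusted p of up to 0.0676. The receptors themselves did not pass: Insr differed by 0.21, Igf1r by -0.16 and Lepr by -0.06 on the log2 scale.

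Among 25 receptor tyrosine kinases and ERBB ligands, 4 fell and none rose (16% lower, against 4.33% of all genes). Their median was -0.0010 and became 0.09 after centring, where 2 were lower and 1 higher. The count was 2 without WT replicate 3 or 4 or KO replicate 1, 2 or 4. The 2 PDGF receptors, which mark and drive mesenchymal cells, led them. Pdgfra had log2 intensities of 9.71, 9.60, 9.35 and 9.52 in KO glands, against 10.37, 10.29, 10.43 and 10.42 in WT glands, and Pdgfrb had 9.32, 9.31, 9.46 and 9.10 in KO glands, against 10.08, 9.81, 10.04 and 9.87 in WT glands. In both genes every KO array lay below every WT array, with differences of -0.83 ± 0.16 (SE), adjusted p = 0.000785, and -0.66 ± 0.10 (SE), adjusted p = 8.37e-05. Egfr, the EGF receptor, had a difference of -0.50 ± 0.15 (SE), adjusted p = 0.0286, with an adjusted p of up to 0.0804 when WT replicate 3 or 4 or KO replicate 1, 2 or 4 was left out. Ddr2, a collagen receptor of mesenchymal cells, had a difference of -0.59 ± 0.19 (SE), adjusted p = 0.0418, and passed in only 1 of the 8 leave-one-out fits, the one without the array labelled KO replicate 3. The ERBB partners of the epithelium, Erbb2, Erbb3 and Erbb4, differed by 0.02, 0.11 and -0.30 on the log2 scale and none passed.

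Milk genes were high in both genotypes. Of 14 tested milk protein genes, 1 rose and none fell (7.14% higher, against 6.78% of all genes), with a median difference of 0.04. That gene was Csn1s2b, a minor casein, at 9.11, 8.92, 8.11 and 10.26 in KO glands, against 7.56, 8.25, 7.05 and 8.08 in WT glands. The array labelled KO replicate 3 lay inside the WT range and the other KO arrays above it, with a difference of 1.37 ± 0.33 (SE), adjusted p = 0.00572, and 1.70 ± 0.32 (SE), adjusted p = 0.00102, without that array. The major caseins Csn1s1, Csn1s2a and Csn3 had differences of -0.04, -0.04 and -0.05, and Wap, the whey acidic protein, had 0.07 ± 0.65 (SE), adjusted p = 0.979. The spread used for these genes comes from all stages, and these caseins and Wap stood near the top of the intensity scale. Ltf, lactoferrin, had log2 intensities of 11.51, 11.43, 11.24 and 11.76 in KO glands, against 10.58, 11.32, 10.16 and 11.04 in WT glands, a difference of 0.71 ± 0.47 (SE), adjusted p = 0.39. Its KO arrays were mostly higher but overlapped WT replicate 2.

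Genes that load milk with lipid gave few calls. Of 13 milk fat globule and lipid droplet genes, 1 rose and none fell (7.69% higher, near the 6.78% of all genes). Plin3, a coat protein of lipid droplets, had 9.49, 9.60, 9.44 and 9.56 in KO glands, against 9.06, 9.16, 9.01 and 9.15 in WT glands. The groups did not overlap, at 0.42 ± 0.10 (SE), adjusted p = 0.00437. None of 20 fatty acid synthesis genes, 17 cholesterol synthesis genes or 18 ion and metal transporters was called with all arrays. Scd2, a fatty acid desaturase on the droplet and synthesis lists, was called without the array labelled KO replicate 3, at -0.93 ± 0.31 (SE), adjusted p = 0.0485. The cholesterol synthesis median of 0.12 became -0.10 without that array. Fasn, fatty acid synthase, differed by 0.09 ± 0.13 (SE), adjusted p = 0.766.

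Of 25 genes of endoplasmic reticulum folding and secretion, 3 fell and none rose (12% lower, against 4.33% of all genes). Their median was 0.01 and became 0.10 after centring, where 2 others were called higher. Without the array labelled KO replicate 3 the median was -0.04 and 4 fell, Spcs3 of the signal peptidase being the fourth at -0.47 ± 0.13 (SE), adjusted p = 0.0222. All 3 genes called with all arrays belong to the gate through which secreted proteins enter the reticulum. Sec61a1, the channel subunit, had 11.90, 11.93, 12.13 and 11.82 in KO glands, against 12.44, 12.27, 12.33 and 12.27 in WT glands. Ssr3 and Ssr1, subunits of the complex bound to that channel, had 10.94, 10.95, 11.22 and 10.91 in KO glands, against 11.47, 11.37, 11.43 and 11.34 in WT glands, and 11.06, 11.10, 11.44 and 10.98 in KO glands, against 11.76, 11.53, 11.54 and 11.46 in WT glands. KO arrays lay below WT arrays in all 3 genes, with the array labelled KO replicate 3 the highest of the KO arrays each time. The differences were -0.38 ± 0.08 (SE), adjusted p = 0.00137, for Sec61a1, -0.40 ± 0.07 (SE), adjusted p = 0.000271, for Ssr3, and -0.42 ± 0.09 (SE), adjusted p = 0.00201, for Ssr1.

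Of 12 genes of serine, glycine and folate metabolism, Psat1 alone was called. Psat1, the serine synthesis enzyme phosphoserine aminotransferase, had a difference of -0.63 ± 0.20 (SE), adjusted p = 0.0376, and an adjusted p of up to 0.164 when WT replicate 1 or 3 or KO replicate 1, 2 or 4 was left out.

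Markers of the epithelial layers were not called. None of 20 pan-epithelial, 16 luminal progenitor and alveolar, 12 hormone-sensing luminal or 17 myoepithelial genes passed with all arrays. Their median differences were -0.04, -0.06, 0.01 and -0.10. Cd14, a receptor shared by luminal progenitors and macrophages, was called without the array labelled KO replicate 3, at 1.16 ± 0.24 (SE), adjusted p = 0.00197. Krt8, a luminal keratin, had 11.91, 11.91, 11.92 and 11.94 in KO glands, against 11.87, 12.01, 11.87 and 11.84 in WT glands, a difference of 0.03 ± 0.20 (SE), adjusted p = 0.971. Acta2, the smooth muscle actin of myoepithelial cells, had 12.47, 12.60, 12.65 and 12.57 in KO glands, against 12.64, 12.81, 12.68 and 12.80 in WT glands, a difference of -0.17 ± 0.10 (SE), adjusted p = 0.322. Among 34 cell cycle genes none was called with all arrays, their median was -0.20, or -0.33 without the array labelled KO replicate 3, and 28 were below 0.

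The stroma gave the most uniform fall. All 23 tested genes of the fibroblast and matrix list were lower in KO glands in their mean, 12 were called (52.2% lower, against 4.33% of all genes) and none rose, with a median of -0.47. Without the array labelled KO replicate 3, 12 were called and the median was -0.53. The count was 7 without KO replicate 4, between 9 and 13 without any 1 of the other arrays, and 9 after centring. Its mean level per array, relative to all 37 arrays, was -0.66, -0.76, -0.53 and -0.81 in KO glands, against -0.34, -0.22, -0.13 and -0.20 in WT glands, so the groups did not overlap. In bulk tissue, fewer cells of a type and less RNA per cell cannot be told apart.

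Fn1, fibronectin, fell the most. It had log2 intensities of 10.54, 10.56, 11.49 and 10.66 in KO glands, against 11.66, 11.98, 11.89 and 12.13 in WT glands. The array labelled KO replicate 3 was much closer to WT than the other KO arrays, and the difference was -1.10 ± 0.20 (SE), adjusted p = 0.000514, or -1.32 ± 0.19 (SE), adjusted p = 8.89e-05, without it. Chains of fibrillar collagen were also lower. Col1a2, a chain of type I collagen, had 10.69, 10.58, 10.76 and 10.59 in KO glands, against 11.15, 11.22, 11.45 and 11.32 in WT glands, and Col3a1, the type III chain, had 10.47, 10.40, 10.69 and 10.36 in KO glands, against 10.88, 11.02, 11.13 and 11.05 in WT glands. In both, all KO arrays lay below all WT arrays, with differences of -0.63 ± 0.13 (SE), adjusted p = 0.00195, and -0.54 ± 0.13 (SE), adjusted p = 0.00692. Col6a3, a chain of the microfibrillar type VI collagen, had 9.48, 9.41, 9.39 and 9.30 in KO glands, against 9.87, 9.96, 10.04 and 9.96 in WT glands, and a difference of -0.56 ± 0.13 (SE), adjusted p = 0.00485.

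The other 6 called members of that list were less steady. Col5a2, a type V chain, had a difference of -0.51 ± 0.13 (SE), adjusted p = 0.0109, lost without WT replicate 3 (adjusted p = 0.0524). Loxl1, which cross-links elastin, had a difference of -0.71 ± 0.19 (SE), adjusted p = 0.0151, lost without KO replicate 2 or 4 (adjusted p up to 0.0573). Col6a2 and the proteoglycan Dcn, at -0.47 ± 0.13 (SE), adjusted p = 0.0137, and -0.37 ± 0.10 (SE), adjusted p = 0.0156, lost their calls without KO replicate 4, with adjusted p up to 0.0685 and 0.078. Col5a1 and the proteoglycan Bgn, at -0.33 ± 0.10 (SE), adjusted p = 0.0319, and -0.35 ± 0.11 (SE), adjusted p = 0.0417, passed in 2 of the 8 leave-one-out fits, those without WT replicate 1 and without the array labelled KO replicate 3. Col1a1, the partner chain of Col1a2, had a difference of -0.43 ± 0.15 (SE), adjusted p = 0.0561, and did not pass.

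**Figure D3:**
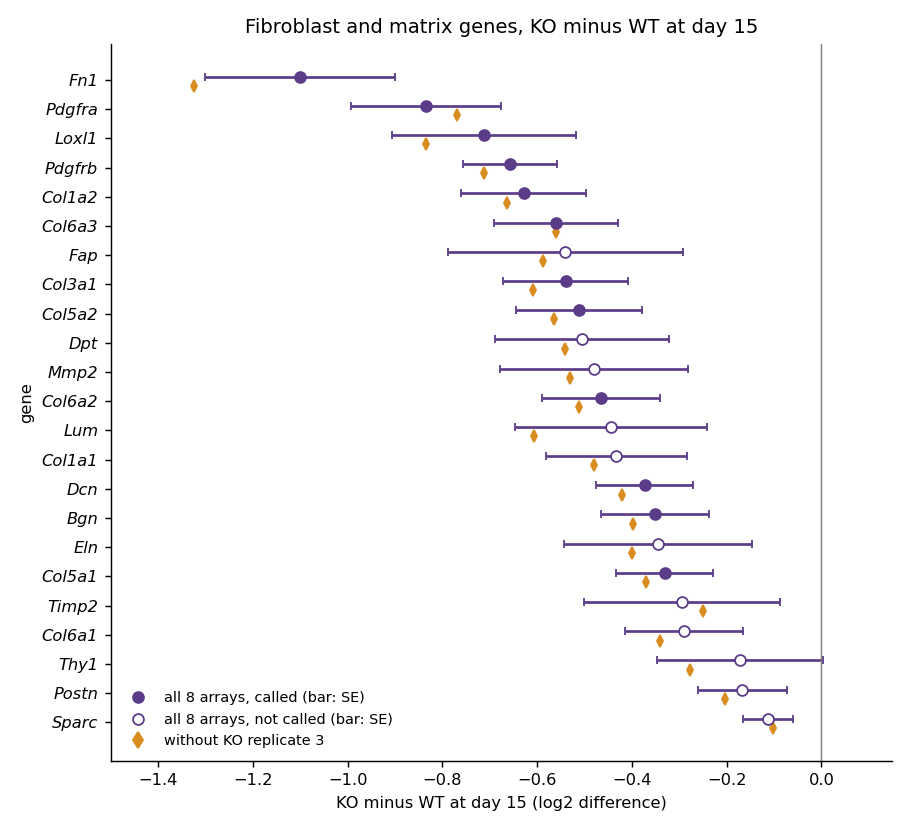
KO minus WT log2 difference with its SE for the 23 tested fibroblast and matrix genes, in order of size; filled points passed the test, open points did not, and diamonds are the differences without the array labelled KO replicate 3. All 23 lie below 0, from -1.10 for Fn1 to -0.11 for Sparc.

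The wider matrix families moved less. Of all 44 collagen genes 6 fell (13.6%, against 4.33% of all genes), each of them also a member of the fibroblast list. The family's median was -0.06, or 0.02 after centring. Without the array labelled KO replicate 3 the collagen count was 8, and without WT replicate 3 it was 4. Of 51 laminins, integrins and other matrix adhesion genes 6 fell (11.8%), with a median of -0.13, and the count was 2 without WT replicate 3 and 3 without WT replicate 4, KO replicate 2 or KO replicate 4. Nid1, the nidogen that links laminin to collagen in basement membrane, had 10.79, 10.55, 10.72 and 10.46 in KO glands, against 11.31, 11.20, 11.22 and 11.34 in WT glands. Itgav, an integrin chain that binds fibronectin, had 9.78, 10.00, 10.05 and 9.81 in KO glands, against 10.27, 10.33, 10.22 and 10.37 in WT glands. Neither overlapped between genotypes, with differences of -0.64 ± 0.13 (SE), adjusted p = 0.00171, and -0.39 ± 0.09 (SE), adjusted p = 0.0029. The proteoglycan Vcan had a difference of -0.84 ± 0.27 (SE), adjusted p = 0.04, while the array labelled KO replicate 3, at 9.39, lay within its WT range of 9.07 to 9.50. Leaving out that array gave -1.14 ± 0.26 (SE), adjusted p = 0.00411, and the call was lost without WT replicate 2, 3 or 4 or KO replicate 1, 2 or 4 (adjusted p up to 0.147).

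Other secreted and adhesion proteins were among the 15 largest falls with separated groups. Hmcn1, hemicentin of the extracellular matrix, had 7.76, 7.68, 8.76 and 8.04 in KO glands, against 9.41, 9.54, 9.97 and 9.93 in WT glands. Fndc1, a protein with fibronectin-type domains, had 6.31, 6.65, 7.65 and 6.56 in KO glands, against 8.27, 8.68, 8.43 and 8.51 in WT glands. In both, every KO array lay below every WT array and the array labelled KO replicate 3 was the KO array nearest to WT, with differences of -1.65 ± 0.27 (SE), adjusted p = 0.00019, and -1.68 ± 0.42 (SE), adjusted p = 0.00791. Flrt2, a leucine-rich adhesion protein, had 6.42, 6.53, 6.81 and 6.48 in KO glands, against 7.89, 7.90, 8.19 and 8.08 in WT glands. Opcml, an immunoglobulin-domain adhesion protein, had 6.24, 7.04, 7.50 and 6.63 in KO glands, against 8.38, 8.27, 8.41 and 8.72 in WT glands. Flrt2 separated the groups by over 1 log2 unit, and the differences were -1.45 ± 0.33 (SE), adjusted p = 0.00369, for Flrt2 and -1.59 ± 0.34 (SE), adjusted p = 0.00231, for Opcml. Adgrd1, an adhesion G protein-coupled receptor, and Pi15, a secreted protein of the peptidase inhibitor family, had differences of -1.22 ± 0.26 (SE), adjusted p = 0.00213, and -1.60 ± 0.39 (SE), adjusted p = 0.00695.

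Some of the largest falls lost their calls when single arrays were left out, while the direction and rough size of each difference held. Akr1c18, the enzyme that inactivates progesterone, had 5.53, 5.53, 6.69 and 5.35 in KO glands, against 6.90, 8.31, 7.59 and 8.50 in WT glands. All KO arrays lay below all WT arrays, with a difference of -2.05 ± 0.63 (SE), adjusted p = 0.0325, yet the call was lost when WT replicate 2, 3 or 4 or KO replicate 1, 2 or 4 was left out (adjusted p up to 0.107). Il33, an alarmin cytokine of stromal cells, had 5.08, 5.56, 5.89 and 5.10 in KO glands, against 7.11, 7.32, 7.00 and 7.11 in WT glands. Its groups lay over 1 log2 unit apart at -1.73 ± 0.51 (SE), adjusted p = 0.0242, and its call was lost without WT replicate 1 or 4 or KO replicate 1 or 4 (adjusted p up to 0.0668). Lrrn4cl and Gfpt2 (an enzyme of hexosamine synthesis) differed by -1.38 ± 0.38 (SE), adjusted p = 0.0173, and -1.12 ± 0.30 (SE), adjusted p = 0.0133. Lrrn4cl was not called without KO replicate 4 (adjusted p = 0.0577), and Gfpt2 not without WT replicate 4 or KO replicate 4 (adjusted p up to 0.0554). Over the leave-one-out fits the differences ran from -2.36 to -1.82 for Akr1c18 and from -1.89 to -1.62 for Il33. Those of Lrrn4cl ran from -1.52 to -1.27 and those of Gfpt2 from -1.33 to -0.99.

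Markers of other stromal cells were looked at beside the fall in matrix genes, from lists of mast cell and lymphatic genes drawn up after values were seen. All 10 mast cell genes were below 0 in their mean difference, with a median of -0.43, and only Cpa3 was called. Cpa3, the mast cell carboxypeptidase, had 6.57, 6.70, 8.28 and 7.19 in KO glands, against 8.73, 9.87, 8.59 and 9.67 in WT glands, with the array labelled KO replicate 3 close to the lower WT arrays. Its difference was -2.03 ± 0.65 (SE), adjusted p = 0.0393, and -2.39 ± 0.69 (SE), adjusted p = 0.0238, without that array, and the call was lost when WT replicate 1, 2 or 4 or KO replicate 1, 2 or 4 was left out (adjusted p up to 0.113). Mcpt4, a mast cell chymase, had a difference of -1.48 ± 0.50 (SE), adjusted p = 0.0538, and was called only without the array labelled KO replicate 3, at -1.76 ± 0.54 (SE), adjusted p = 0.0315. Of 6 lymphatic vessel genes Lyve1 alone was called, a hyaluronan receptor that some macrophages also carry, at 6.97, 7.07, 8.41 and 7.51 in KO glands, against 8.86, 9.08, 8.87 and 9.17 in WT glands. Its difference was -1.50 ± 0.49 (SE), adjusted p = 0.043, and the fit without the array labelled KO replicate 3 was the only leave-one-out fit to call it. In the lymphatic list 5 of the 6 genes were below 0 in their mean difference. The median was -0.59, or -0.69 without that array. The list's mean level was lower on every KO array than on any WT array, though narrowly, at -0.1816 on the array labelled KO replicate 3 and -0.1777 on WT replicate 1. Prox1 and Flt4, defining genes of lymphatic endothelium, differed by 0.12 and -0.02 on the log2 scale and did not pass.

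Vessels, nerve and blood cells gave few calls. None of 17 endothelial genes passed, and Cdh5, the endothelial cadherin, had 10.74, 10.80, 10.75 and 10.80 in KO glands, against 10.85, 11.05, 10.80 and 10.94 in WT glands. Of 7 Schwann cell genes Pmp22 alone fell, a myelin protein that fibroblasts also make, at -0.52 ± 0.14 (SE), adjusted p = 0.0145, and its call was lost without WT replicate 1 or KO replicate 4 (adjusted p up to 0.0567). None of 15 B lymphocyte, 13 T lymphocyte, 8 neutrophil or 13 plasma cell genes was called, nor any of 18 macrophage genes with all arrays. Cd74, the invariant chain of antigen-presenting cells, had 11.71, 11.80, 11.45 and 11.68 in KO glands, against 11.45, 11.90, 11.67 and 11.73 in WT glands. Those groups overlapped, at -0.03 ± 0.16 (SE), adjusted p = 0.958. Lyz2, a lysozyme of macrophages, differed by 0.33 ± 0.19 (SE), adjusted p = 0.309.

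**Figure D4:**
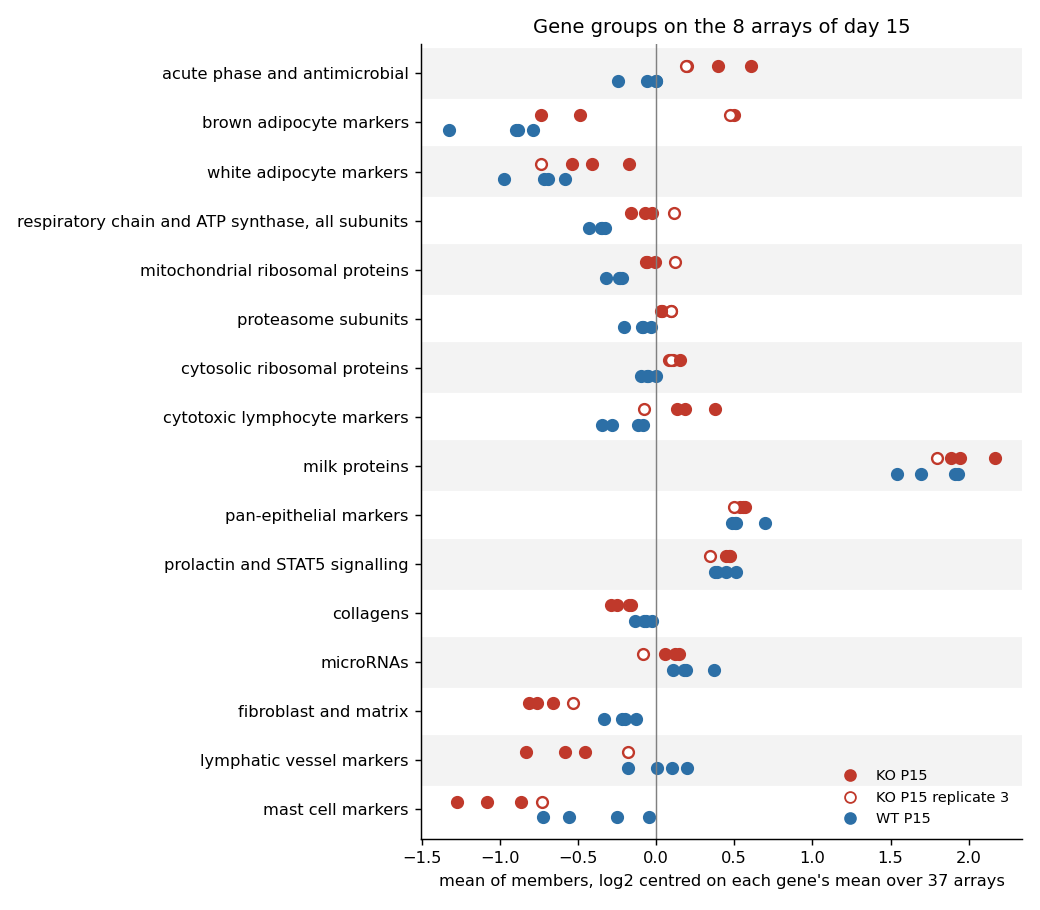
Mean level of 16 gene lists on each day 15 array, as log2 relative to each gene's mean over all 37 arrays, with KO above WT in each row and the array labelled KO replicate 3 as an open circle. In the fibroblast and matrix list the KO arrays lie between -0.81 and -0.53 and the WT arrays between -0.34 and -0.13, while the pan-epithelial lists of the genotypes overlap.

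Adipocyte genes were modestly higher. Of 18 white adipocyte markers, 4 rose and none fell (22.2% higher, against 6.78% of all genes), 16 were above 0 and the median was 0.27. The count was 2 without WT replicate 3, KO replicate 1 or KO replicate 2. Pck1 was also called when the array labelled KO replicate 3 was left out. Retn, the adipocyte hormone resistin, had 12.40, 12.20, 12.48 and 11.96 in KO glands, against 11.87, 11.77, 11.86 and 11.86 in WT glands. Fabp4, the fatty acid carrier of adipocytes, had 12.46, 12.27, 12.25 and 12.22 in KO glands, against 11.97, 12.06, 11.87 and 11.98 in WT glands. Neither gene overlapped between genotypes, with differences of 0.42 ± 0.09 (SE), adjusted p = 0.00274, and 0.33 ± 0.08 (SE), adjusted p = 0.00461. Cidec, a lipid droplet protein, and Lipe, the hormone-sensitive lipase, had differences of 0.43 ± 0.12 (SE), adjusted p = 0.018, and 0.45 ± 0.13 (SE), adjusted p = 0.0231. The Cidec call was lost without WT replicate 2 or 3 or KO replicate 1 or 2 (adjusted p up to 0.0748), and that of Lipe without WT replicate 3 or KO replicate 1 or 2 (adjusted p up to 0.106). Adipoq and Lep, which encode adiponectin and leptin, did not pass, at 0.29 and -0.07. The list's mean level per array was -0.17, -0.41, -0.74 and -0.54 in KO glands, against -0.58, -0.69, -0.97 and -0.72 in WT glands, and the array labelled KO replicate 3 was below 3 of the WT arrays.

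Cox8b, a subunit of cytochrome c oxidase found in muscle and brown fat, had the next largest rise to Saa2 among genes whose groups did not overlap. It had 9.67, 11.22, 11.42 and 10.04 in KO glands, against 8.87, 8.42, 8.60 and 7.78 in WT glands. Every KO array exceeded every WT array, with KO replicate 2 and the array labelled KO replicate 3 the highest, and the difference was 2.17 ± 0.43 (SE), adjusted p = 0.00126, or 1.89 ± 0.45 (SE), adjusted p = 0.00698, without the array labelled KO replicate 3. It was the only one of 11 brown adipocyte markers to pass, although all 11 were above 0 and their median was 0.88, or 0.85 without that array. With the 8 day 15 arrays fitted alone 3 of the 11 passed. Ucp1, the uncoupling protein that defines brown fat, had 7.67, 10.63, 10.26 and 7.72 in KO glands, against 7.94, 7.20, 7.88 and 5.94 in WT glands. Its high values were those of KO replicate 2 and the array labelled KO replicate 3, and the difference was 1.83 ± 1.18 (SE), adjusted p = 0.382. The mean of the 11 markers was -0.73, 0.50, 0.47 and -0.49 in KO glands, against -0.79, -0.90, -0.88 and -1.33 in WT glands. The median of the list was 0.57 without KO replicate 2 and 0.38 without KO replicate 2 and the array labelled KO replicate 3 together, and Cox8b was not called in that last fit.

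Some of the largest rises in the fit without the array labelled KO replicate 3 were in genes known to respond to fasting, and they divided the arrays in another way. Pck1, the enzyme that commits carbon to glucose or glycerol synthesis, had 11.34, 11.60, 8.34 and 11.41 in KO glands, against 8.53, 10.25, 7.90 and 10.68 in WT glands. Pdk4, which shuts pyruvate out of the citric acid cycle, had 10.76, 11.34, 9.08 and 11.12 in KO glands, against 8.49, 10.22, 8.40 and 10.48 in WT glands. Ucp3, a mitochondrial carrier of fat-burning tissue, had 9.84, 9.93, 8.12 and 9.94 in KO glands, against 7.13, 9.25, 6.76 and 9.34 in WT glands. In all 3 the array labelled KO replicate 3 and WT replicates 1 and 3 were low, and the other KO arrays and WT replicates 2 and 4 were high. With all arrays the genes did not pass in the fit on the deposited scale, at 1.33 ± 0.50 (SE), adjusted p = 0.0852, 1.18 ± 0.43 (SE), adjusted p = 0.0744, and 1.34 ± 0.48 (SE), adjusted p = 0.0701. Without the array labelled KO replicate 3 they passed, at 2.11 ± 0.40 (SE), adjusted p = 0.000982, 1.68 ± 0.41 (SE), adjusted p = 0.00725, and 1.78 ± 0.48 (SE), adjusted p = 0.0161, and leaving out WT replicate 2 or WT replicate 4 also brought each under the threshold. With array weights all 3 passed with all arrays, at adjusted p = 0.0092 for Pck1, 0.0175 for Pdk4 and 0.0108 for Ucp3, and after centring Pdk4 (adjusted p = 0.043) and Ucp3 (adjusted p = 0.0434) did. The clock repressor Nr1d1 had 10.82, 10.62, 8.83 and 10.33 in KO glands, against 9.12, 10.88, 8.82 and 10.10 in WT glands. It split the arrays the same way, and none of 16 clock genes was called. Saa2, Csn1s2b, Gadd45g, Sftpd and Cebpb, which were called with all arrays, had a like order within each genotype. The array labelled KO replicate 3 was their lowest KO array, and WT replicates 1 and 3 lay below WT replicates 2 and 4. In Uqcr11 and Retn that array was instead the highest KO array. The part of this order in any genotype difference was not tested. The time of day of collection is not given in the sources used here.

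Genes of energy metabolism, protein synthesis and protein degradation, grouped by symbol after values were seen, gave many small rises. Of 79 subunits of the respiratory chain and ATP synthase, 22 rose and none fell (27.8% higher, against 6.78% of all genes). In this list 68 were above 0 and the median was 0.25. Without the array labelled KO replicate 3, 19 rose, and 17 of the 22 were called in all 8 leave-one-out fits. Cox8b, named above with the brown adipocyte markers, was also 1 of the 22 and had the largest difference, 2.17. Uqcr11, a small subunit of complex III, had 10.23, 10.50, 10.93 and 10.44 in KO glands, against 9.20, 9.01, 9.36 and 9.06 in WT glands. The lowest KO array lay well above the highest WT array, and the 2.58-fold difference was 1.37 ± 0.18 (SE), adjusted p = 2.02e-05. Uqcrb, also of complex III, had 12.23, 12.41, 12.62 and 12.17 in KO glands, against 11.49, 11.67, 11.66 and 11.39 in WT glands. Cox6b1, a subunit of cytochrome c oxidase, had 11.49, 11.55, 11.73 and 11.55 in KO glands, against 10.91, 10.84, 10.96 and 10.95 in WT glands. In these genes too the groups did not overlap, at 0.80 ± 0.11 (SE), adjusted p = 2.82e-05, and 0.66 ± 0.09 (SE), adjusted p = 2.98e-05.

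Subunits from each of the other complexes were among the 22. Ndufb2, a subunit of complex I, and Ndufa4, first described as one, had differences of 0.80 ± 0.13 (SE), adjusted p = 0.000174, and 0.64 ± 0.13 (SE), adjusted p = 0.0014. Sdhb, the iron-sulphur subunit of succinate dehydrogenase, had 10.12, 10.43, 10.62 and 10.28 in KO glands, against 9.79, 9.62, 9.82 and 9.62 in WT glands. Cox4i1, a subunit of cytochrome c oxidase, had 11.04, 11.24, 11.16 and 11.17 in KO glands, against 10.58, 10.62, 10.58 and 10.61 in WT glands. Both showed KO arrays above WT arrays, at 0.65 ± 0.16 (SE), adjusted p = 0.00807, and 0.55 ± 0.11 (SE), adjusted p = 0.0017. Atp5e and Atp5mpl, small subunits of ATP synthase, had differences of 0.90 ± 0.16 (SE), adjusted p = 0.000316, and 0.71 ± 0.12 (SE), adjusted p = 0.000223. The array labelled KO replicate 3 was the highest of all 8 arrays for Uqcr11, Uqcrb, Cox6b1 and Sdhb.

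Ribosomal proteins of the mitochondrion moved alike. Of 77 such genes, 24 rose and none fell (31.2% higher, against 6.78% of all genes), 70 were above 0 and the median was 0.25. There were 18 calls without the array labelled KO replicate 3, and 15 of the 24 were called in all 8 leave-one-out fits. Mrps26 had 7.47, 7.74, 7.80 and 7.71 in KO glands, against 6.88, 7.02, 6.97 and 6.92 in WT glands, and Mrpl41 had 8.28, 8.18, 8.22 and 8.58 in KO glands, against 7.50, 7.71, 7.70 and 7.69 in WT glands. Both belong to the mitochondrial ribosome, the first to its small and the second to its large subunit. The groups lay apart, at 0.73 ± 0.08 (SE), adjusted p = 5.8e-06, and 0.66 ± 0.09 (SE), adjusted p = 3.38e-05. Mrps18c and Mrpl27 had differences of 0.74 ± 0.11 (SE), adjusted p = 6.21e-05, and 0.69 ± 0.10 (SE), adjusted p = 6.29e-05.

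The brown fat markers moved with these mitochondrial lists on some arrays. Cox8b is a member of both the brown and the respiratory list, so these lists are not separate sets. The mean level of the 79 respiratory genes was -0.16, -0.02, 0.12 and -0.07 in KO glands, against -0.33, -0.35, -0.35 and -0.43 in WT glands, and that of the mitochondrial ribosomal genes was -0.06, -0.01, 0.12 and -0.06 in KO glands, against -0.24, -0.23, -0.22 and -0.32 in WT glands. KO replicate 2 and the array labelled KO replicate 3, the arrays with high brown markers, were also highest here. Without both, 13 of the 79 respiratory genes and 11 of the 77 mitochondrial ribosomal genes were called higher, and the medians over all members of each list were 0.20 and 0.15. In that fit 596 of all 16865 genes were higher, against 1143 with all arrays. KO replicates 1 and 4 alone thus gave smaller counts in these lists, as over all genes, with the same direction. The part of the brown markers in the result was not tested.

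Cytosolic ribosomal proteins changed less. Of 61 genes 10 rose and none fell (16.4% higher, against 6.78% of all genes), with a median of 0.16. The count was 8 without the array labelled KO replicate 3, 5 without WT replicate 1 and 6 without WT replicate 4 or KO replicate 4, and 26 after centring. Rps9 had 12.07, 12.15, 12.07 and 12.24 in KO glands, against 11.66, 11.73, 11.81 and 11.74 in WT glands, and Rps25 had 11.70, 11.67, 11.79 and 11.70 in KO glands, against 11.11, 11.41, 11.39 and 11.28 in WT glands. Both are proteins of the small subunit, and their groups did not overlap, at 0.40 ± 0.09 (SE), adjusted p = 0.00481, and 0.41 ± 0.09 (SE), adjusted p = 0.00363. Rpl12, of the large subunit, had a larger difference of 1.03 ± 0.26 (SE), adjusted p = 0.00932. Processed copies of ribosomal protein genes are common, so a probe set of one may also read its copies.

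The proteasome, which degrades ubiquitin-tagged proteins, followed the same direction. Of 48 subunit genes 20 rose and 2 fell, with a median of 0.21. The shares were 41.7% higher and 4.17% lower, against 6.78% and 4.33% of all genes. The count of rises was 15 without the array labelled KO replicate 3, 9 without WT replicate 4 and 6 without KO replicate 2 and the array labelled KO replicate 3 together, and 9 genes were called in all 8 leave-one-out fits. Psmc1, an ATPase of the regulatory cap, had 9.96, 10.00, 9.99 and 10.14 in KO glands, against 9.43, 9.55, 9.56 and 9.32 in WT glands. Psma3, of the outer ring of the core, had 10.76, 10.82, 11.09 and 10.56 in KO glands, against 9.98, 10.12, 10.12 and 9.77 in WT glands. The groups lay apart in both genes, at 0.56 ± 0.07 (SE), adjusted p = 2.1e-05, and 0.81 ± 0.11 (SE), adjusted p = 2.82e-05. Psmd4, which binds ubiquitin chains, and Psmd8 of the cap rose by 0.51 ± 0.09 (SE), adjusted p = 0.000358, and 0.37 ± 0.07 (SE), adjusted p = 0.00046. The 2 lower genes were Psme4, an activator, at -0.23 ± 0.07 (SE), adjusted p = 0.04, and Psmf1, an inhibitor of the core, at -0.20 ± 0.06 (SE), adjusted p = 0.035. Neither call was firm, since Psme4 passed only in the leave-one-out fit without WT replicate 1, and Psmf1 only in those without WT replicate 3 or KO replicate 2 (adjusted p up to 0.112). Without the array labelled KO replicate 3, 1 proteasome gene was lower, and it was neither of these.

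Acute phase genes rose in few members. Of 17 acute phase and antimicrobial genes, 3 rose and none fell (17.6% higher, against 6.78% of all genes) and 16 were above 0. Their median was 0.17, and 2 rose without the array labelled KO replicate 3. Beside Saa2 these were Saa3, the serum amyloid made in fat and gland, and Hp, haptoglobin, which binds free haemoglobin. Saa3 had 5.90, 5.77, 5.17 and 7.02 in KO glands, against 5.25, 5.02, 4.88 and 5.25 in WT glands. KO replicate 4 was highest, as for Saa2, and the array labelled KO replicate 3 lay inside the WT range, at 0.86 ± 0.24 (SE), adjusted p = 0.0154. The call was lost without WT replicate 3 or KO replicate 4, with an adjusted p of up to 0.105, and without KO replicate 4 the difference was 0.51. Hp had 8.61, 8.73, 8.66 and 8.72 in KO glands, against 8.0, 7.85, 8.27 and 7.95 in WT glands. Its groups did not overlap, yet its call, 0.66 ± 0.21 (SE), adjusted p = 0.0334, was kept only in the leave-one-out fit without WT replicate 3 (adjusted p up to 0.0827). Saa1, a close paralogue of Saa2 that stayed under the intensity filter and was not tested, had 4.31, 3.77, 3.29 and 6.56 in KO glands, against 3.28, 3.19, 3.08 and 3.41 in WT glands. The signals of such close paralogues cannot be separated here, so which of them carries the Saa2 signal is uncertain.

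Cebpb, a transcription factor of acute phase genes that the mammary epithelium needs for alveolar growth, is a near neighbour of Ptpn1 on chromosome 2. It had 8.37, 8.30, 8.21 and 8.61 in KO glands, against 7.58, 8.03, 7.46 and 7.88 in WT glands. All KO arrays lay above all WT arrays, with a difference of 0.63 ± 0.12 (SE), adjusted p = 0.000608. Of 50 tested genes around Ptpn1, 25 on each side, 2 rose and 1 fell, with a median of -0.01. These shares, 4% higher and 2% lower, were below the 6.78% and 4.33% of all genes. Without the array labelled KO replicate 3, 2 rose and 2 fell. The other gene that rose was Ddx27, an RNA helicase of ribosome assembly, at 0.34 ± 0.07 (SE), adjusted p = 0.00225. The one that fell with all arrays was Ptgis, the prostacyclin synthase, at -0.64 ± 0.19 (SE), adjusted p = 0.0258, and it was not called without WT replicate 4 or KO replicate 1, 2 or 4 (adjusted p up to 0.0903).

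Since Saa2, Saa3 and Cebpb were all higher, the 250 bases before the start of both serum amyloid genes are shown. They are RefSeq sequences of the GRCm38.p6 build, 5′ to 3′ on the strand of the gene, from chr7:46751583-46751832 on the plus strand for Saa2 and chr7:46715677-46715926 on the minus strand for Saa3. Capitals mark the letters TTGCNNAA, or TTNNGCAA on the other strand, a core that C/EBP factors can bind.
Saa2: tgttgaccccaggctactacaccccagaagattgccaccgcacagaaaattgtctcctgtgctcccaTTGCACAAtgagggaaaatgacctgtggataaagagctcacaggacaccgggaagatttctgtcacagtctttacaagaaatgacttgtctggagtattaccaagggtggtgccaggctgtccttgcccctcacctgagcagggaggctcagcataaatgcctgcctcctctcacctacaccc
Saa3: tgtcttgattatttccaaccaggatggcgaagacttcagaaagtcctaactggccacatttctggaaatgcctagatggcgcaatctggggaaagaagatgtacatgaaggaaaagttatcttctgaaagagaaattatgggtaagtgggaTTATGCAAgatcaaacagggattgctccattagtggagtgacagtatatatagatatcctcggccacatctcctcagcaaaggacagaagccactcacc
Each window held 1 match, at position 68 in Saa2 and at position 152, on the other strand, in Saa3. Of 32851 promoter windows of this length, 9.56% held one. A match is a description of letters and not a measured binding site.

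Immune effector and interferon genes rose in single members. Of 14 cytotoxic lymphocyte genes 2 rose and none fell (14.3% higher, against 6.78% of all genes), with 13 above 0 and a median of 0.33. Klrd1, a receptor chain of natural killer cells, was also called when the array labelled KO replicate 3 was left out, at 0.90 ± 0.28 (SE), adjusted p = 0.0371. Xcl1, a chemokine of natural killer and CD8 T cells, had 7.88, 7.99, 8.03 and 7.61 in KO glands, against 7.09, 7.12, 7.42 and 6.93 in WT glands. Gzmb, granzyme B, had 8.32, 8.82, 8.41 and 8.32 in KO glands, against 6.97, 7.97, 7.46 and 7.62 in WT glands. Both separated the genotypes, at 0.74 ± 0.15 (SE), adjusted p = 0.00136, and 0.96 ± 0.26 (SE), adjusted p = 0.0129, and Gzmb was not called without WT replicate 1 or KO replicate 2 (adjusted p up to 0.0699). Prf1, perforin, a defining gene of these cells, differed by -0.05 and did not pass. The list averaged 0.19, 0.38, -0.07 and 0.13 in KO glands, against -0.34, -0.11, -0.08 and -0.28 in WT glands, with the array labelled KO replicate 3 just above the highest WT array.

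Of 31 interferon-induced genes 2 rose and none fell (6.45% higher, near the 6.78% of all genes), with a median of 0.27. Gbp3, a guanylate-binding protein, joined them when the array labelled KO replicate 3 was left out, at 0.81 ± 0.22 (SE), adjusted p = 0.0156. Psmb8, an inducible proteasome subunit, and Bst2, the antiviral tetherin, had differences of 0.54 ± 0.15 (SE), adjusted p = 0.0166, and 0.44 ± 0.14 (SE), adjusted p = 0.0311. Psmb8 was not called without WT replicate 1 or 4 or KO replicate 2 (adjusted p up to 0.0866), and Bst2 not without WT replicate 1 or 4 or KO replicate 1, 2 or 4 (adjusted p up to 0.13). Cd1d1, which presents lipids to natural killer T cells, was among the 15 largest rises, at 9.22, 9.09, 8.87 and 8.93 in KO glands, against 7.81, 8.18, 7.89 and 7.82 in WT glands. Its groups lay apart, with a difference of 1.10 ± 0.22 (SE), adjusted p = 0.00143. Sftpd, surfactant protein D, a collectin of mucosal defence, had 9.97, 10.42, 9.62 and 11.02 in KO glands, against 8.68, 9.70, 8.08 and 9.05 in WT glands, and rose by 1.38 ± 0.33 (SE), adjusted p = 0.00593.

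Of 20 immediate early genes 4 rose and 1 fell, with a median of 0.09. The shares were 20% higher and 5% lower, against 6.78% and 4.33% of all genes. Jun, a subunit of the AP-1 transcription factor, had 9.30, 9.11, 9.75 and 9.10 in KO glands, against 8.44, 8.55, 8.76 and 8.43 in WT glands. It was higher on every KO array, at 0.77 ± 0.13 (SE), adjusted p = 0.000294, and was the one member called in all 8 leave-one-out fits. Junb, another AP-1 subunit, differed by 0.42 ± 0.11 (SE), adjusted p = 0.0101, and was lost without KO replicate 4 (adjusted p = 0.0535). Ier3, Btg2 and Egr2 differed by 0.48 ± 0.14 (SE), adjusted p = 0.0262, 0.48 ± 0.14 (SE), adjusted p = 0.0277, and -0.93 ± 0.27 (SE), adjusted p = 0.0232. Ier3 kept its call only without WT replicate 2 or the array labelled KO replicate 3 and Btg2 only without WT replicate 2 or 3 or that array, while Egr2, a zinc finger factor, lost it without WT replicate 1 or 3 or KO replicate 4, with adjusted p up to 0.0832, 0.109 and 0.103.

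Other genes among the largest rises have a mix of roles. Nupr1, a stress-induced nuclear protein, had 10.06, 10.04, 9.85 and 10.27 in KO glands, against 8.63, 9.34, 8.86 and 9.02 in WT glands. Gadd45g, induced by growth arrest and DNA damage, had 9.31, 9.41, 8.49 and 9.60 in KO glands, against 7.45, 8.87, 7.38 and 8.45 in WT glands. Nupr1 separated the groups with a difference of 1.09 ± 0.14 (SE), adjusted p = 1.99e-05, while for Gadd45g the array labelled KO replicate 3 and WT replicate 2 crossed and the difference was 1.17 ± 0.26 (SE), adjusted p = 0.00335. Gstt2, a glutathione transferase, had 8.22, 8.18, 7.51 and 7.96 in KO glands, against 6.92, 7.23, 6.65 and 6.96 in WT glands, and rose by 1.03 ± 0.18 (SE), adjusted p = 0.000359. Amy1, an amylase, and Zfp949, a zinc finger protein, rose by 0.98 ± 0.27 (SE), adjusted p = 0.0146, and 1.14 ± 0.23 (SE), adjusted p = 0.00124. Car4, a membrane carbonic anhydrase, had 9.84, 10.15, 10.03 and 10.43 in KO glands, against 8.77, 9.61, 7.86 and 9.79 in WT glands, with WT replicate 3 the lowest. Its difference was 1.10 ± 0.30 (SE), adjusted p = 0.0159, and its call was lost without WT replicate 1 or 3 or KO replicate 4 (adjusted p up to 0.108), with a difference of 0.72 without WT replicate 3. Rasd1, a small G protein induced by glucocorticoid, had 1.09 ± 0.35 (SE), adjusted p = 0.0404, and was not called without WT replicate 1, 3 or 4 or KO replicate 1, 2 or 4 (adjusted p up to 0.135).

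Srsf5 and Rsrp1 were among the largest rises, and small nucleolar RNAs moved in both directions. Srsf5, a splicing factor rich in serine and arginine, had 10.60, 10.12, 9.93 and 10.29 in KO glands, against 8.65, 9.11, 9.49 and 8.83 in WT glands. Rsrp1, a nuclear protein of similar composition, had 11.03, 10.77, 10.52 and 10.83 in KO glands, against 9.44, 9.82, 9.84 and 9.93 in WT glands. All KO arrays lay above all WT arrays in both, with differences of 1.22 ± 0.27 (SE), adjusted p = 0.00276, and 1.03 ± 0.17 (SE), adjusted p = 0.000189. Of 50 small nucleolar RNA genes, which guide chemical marking of other RNAs, 8 rose and 6 fell. The shares were 16% higher and 12% lower, against 6.78% and 4.33% of all genes. Their median was -0.01, or 0.08 after centring, and 7 rose and 5 fell without the array labelled KO replicate 3. The lower count was 3 without WT replicate 1, WT replicate 3, KO replicate 2 or KO replicate 4. Snora31 had 7.51, 7.51, 7.98 and 7.04 in KO glands, against 5.96, 6.44, 6.09 and 6.13 in WT glands, and Snora44 had 9.65, 9.89, 10.45 and 9.81 in KO glands, against 8.70, 8.22, 9.24 and 8.49 in WT glands. Snora23 went the other way, at 9.73, 9.39, 9.56 and 9.57 in KO glands, against 10.74, 10.07, 10.83 and 10.57 in WT glands. The differences were 1.36 ± 0.33 (SE), adjusted p = 0.00616, for Snora31, 1.29 ± 0.31 (SE), adjusted p = 0.00555, for Snora44, and -0.99 ± 0.20 (SE), adjusted p = 0.00172, for Snora23. Snora30 and Snord85 had differences of -0.71 ± 0.16 (SE), adjusted p = 0.00266, and -0.67 ± 0.15 (SE), adjusted p = 0.00335. Snora73a and Snora73b, copies of similar sequence whose probe sets may share signal, rose by 1.03 ± 0.27 (SE), adjusted p = 0.0116, and 1.02 ± 0.27 (SE), adjusted p = 0.0125. Most of these RNAs lie in introns of other genes, and their signal and that of the host transcript cannot be told apart here.

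MicroRNA genes gave calls in the downward direction only. Of 168 tested microRNA genes 19 fell and none rose (11.3% lower, against 4.33% of all genes), with a median of -0.11, or -0.02 after centring, where 11 were lower and 1 higher. The count was 13 without the array labelled KO replicate 3, 9 when WT replicate 4 and 11 when KO replicate 2 was left out, and 6 when KO replicate 2 and the array labelled KO replicate 3 were both left out. MicroRNAs pair with target mRNAs mainly through a seed at their 5′ end, so mature forms are shown for the 5 called genes of smallest p and for Mir99a and Mirlet7c-1, which share a host transcript, from RefSeq for the GRCm38.p6 build, with the seed, bases 2 to 8, in capitals. Mature forms were in the table for 18 of the 19 genes. The forms miR-99a-3p and let-7c-1-3p are not shown, and the only form listed for Mirlet7a-2 was let-7a-2-3p.
mmu-miR-505-3p: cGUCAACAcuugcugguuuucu
mmu-miR-505-5p: gGGAGCCAggaaguauugauguu
mmu-miR-128-3p: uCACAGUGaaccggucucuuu
mmu-miR-128-1-5p: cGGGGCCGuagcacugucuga
mmu-miR-491-5p: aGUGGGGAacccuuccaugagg
mmu-miR-491-3p: cUUAUGCAagauucccuucuac
mmu-let-7a-2-3p: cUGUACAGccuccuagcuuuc
mmu-miR-687: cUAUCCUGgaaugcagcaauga
mmu-miR-99a-5p: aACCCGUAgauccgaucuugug
mmu-let-7c-5p: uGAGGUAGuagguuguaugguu
The seed of let-7c-5p is shared by 13 of the 1738 mature entries of the table.

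The probe sets are named for the precursor genes, and which form of the RNA was measured is not given. Mir505, on chromosome X, had 8.40, 8.48, 8.14 and 8.59 in KO glands, against 9.45, 9.30, 9.73 and 9.80 in WT glands. All KO arrays lay below all WT arrays, at -1.17 ± 0.22 (SE), adjusted p = 0.000775. Mir128-1 had 5.50, 5.69, 5.25 and 5.79 in KO glands, against 6.25, 6.24, 6.47 and 6.60 in WT glands, and Mir491 had 4.77, 4.65, 4.53 and 4.55 in KO glands, against 5.16, 5.28, 5.58 and 5.41 in WT glands. These are low on the scale, near the filter at 4.96 for Mir491, and differed by -0.83 ± 0.14 (SE), adjusted p = 0.000267, and -0.73 ± 0.13 (SE), adjusted p = 0.000285. Mir687 had 5.24, 4.89, 4.73 and 4.86 in KO glands, against 5.52, 5.61, 6.05 and 5.96 in WT glands, and Mirlet7a-2 had 4.75, 4.54, 4.40 and 4.77 in KO glands, against 5.27, 5.11, 5.59 and 4.99 in WT glands. In both the groups did not overlap, with KO arrays near or under that filter value, at -0.86 ± 0.16 (SE), adjusted p = 0.000681, and -0.62 ± 0.12 (SE), adjusted p = 0.00062.

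On chromosome 16, Mir99a and Mirlet7c-1 lie in the transcript of Mir99ahg, their host gene, and all 3 were lower. Mir99ahg had 7.00, 6.86, 6.72 and 6.81 in KO glands, against 7.93, 7.54, 8.12 and 7.76 in WT glands, and its difference was -0.99 ± 0.18 (SE), adjusted p = 0.000393. Mir99a had 6.26, 6.31, 5.28 and 6.26 in KO glands, against 6.51, 7.00, 6.91 and 7.22 in WT glands, and Mirlet7c-1 had 4.79, 4.92, 4.10 and 4.75 in KO glands, against 5.11, 5.89, 5.25 and 5.93 in WT glands. In both the array labelled KO replicate 3 was the lowest of all 8, and without it their calls were lost, at -0.63 ± 0.26 (SE), adjusted p = 0.127, and -0.73 ± 0.30 (SE), adjusted p = 0.129. With all arrays the differences were -0.88 ± 0.26 (SE), adjusted p = 0.0263, and -0.91 ± 0.28 (SE), adjusted p = 0.0357. The Mir99a call was also lost without WT replicate 2, 3 or 4, and that of Mirlet7c-1 without WT replicate 2 or 4 or KO replicate 1 or 4.

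The genotype difference at day 15 was then set against the mean of the genotype differences at P0 and days 3, 7 and 10. This contrast called 1399 genes (8.3%), with 946 higher (5.61%) and 453 lower (2.69%), and 1269 (7.52%, of which 838, or 4.97% of genes tested, higher and 431, or 2.56%, lower) without the array labelled KO replicate 3. Without WT replicate 4 it called 901 genes, of which 616 were higher and 285 lower, and without KO replicate 4 280 were lower. At the single stages, KO minus WT called 286 genes at P0 (1.7%), 20 on day 3 (0.119%), 1 on day 7 (0.00593%), 2905 on day 10 (17.2%) and 1873 on day 15. Ptpn1 itself was not called in this contrast, at 0.59 ± 0.45 (SE), adjusted p = 0.487.

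Uqcr11 had the largest contrast among the 10 genes of smallest p. Its KO minus WT difference was -0.21, 0.28, -0.07 and -0.96 at P0 and days 3, 7 and 10, against 1.37 on day 15, and the contrast was 1.61 ± 0.20 (SE), adjusted p = 3.2e-05. Cox6b1, also of the respiratory chain, and Mrps26, of the mitochondrial ribosome, had contrasts of 0.78 ± 0.10 (SE), adjusted p = 5.05e-05, and 0.72 ± 0.10 (SE), adjusted p = 5.05e-05. Nupr1 had earlier differences of -0.30, 0.14, 0.18 and -0.34, and a contrast of 1.17 ± 0.16 (SE), adjusted p = 6.03e-05. Ccnt1, the cyclin that activates the elongating form of RNA polymerase, ran the other way. It had 9.80, 9.68, 9.64 and 9.55 in KO glands, against 10.39, 10.32, 10.46 and 10.36 in WT glands, at day 15, earlier differences of 0.21, 0.01, -0.13 and 0.64, and a contrast of -0.89 ± 0.09 (SE), adjusted p = 1.04e-06. Lcor, a ligand-dependent corepressor, was lower likewise, at -0.59 ± 0.08 (SE), adjusted p = 5.05e-05. Higher ones were Dctn6, of the dynactin complex, at 0.56 ± 0.07 (SE), adjusted p = 1.8e-05, Urm1, a ubiquitin-like modifier, at 0.72 ± 0.09 (SE), adjusted p = 3.2e-05, Ptms, parathymosin, at 0.86 ± 0.11 (SE), adjusted p = 3.23e-05, and Rrp1, of ribosomal RNA processing, at 0.58 ± 0.08 (SE), adjusted p = 5.16e-05.

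By list, 22 of 77 mitochondrial ribosomal genes and 22 of 79 respiratory genes were higher in this contrast and none was lower. The median KO minus WT difference of the mitochondrial ribosomal list was -0.12, 0.13, -0.01, -0.19 and 0.25 from P0 through days 3, 7, 10 and 15, and that of the respiratory list was -0.23, 0.18, -0.07, -0.27 and 0.25. The proteasome stood at 0.01, 0.04, 0.03, -0.05 and 0.21, with 13 genes higher and 1 lower in the contrast. These 3 lists had a positive median at day 15 and a negative one at day 10. At day 10 marker lists also differed between genotypes, with all 15 B lymphocyte and all 13 T lymphocyte genes higher in KO glands (medians 2.51 and 2.49), and 5 of 18 white adipocyte genes (median -0.50) and 8 of 17 endothelial genes (median -0.47) lower. Without day 10 among the other stages the contrast called 976 genes, 645 higher and 331 lower, with 14 mitochondrial ribosomal, 17 respiratory and 9 proteasome genes higher and none of them lower. The fibroblast and matrix list ran 0.25, -0.43, -0.10, -0.35 and -0.47, and 4 of its 23 genes were called lower in the contrast, which were Fn1 at -1.0 ± 0.23 (SE), adjusted p = 0.00502, Pdgfra at -0.72 ± 0.18 (SE), adjusted p = 0.0105, Col1a2 at -0.46 ± 0.15 (SE), adjusted p = 0.0495, and Pdgfrb at -0.41 ± 0.11 (SE), adjusted p = 0.0191. For its other 19 genes the day 15 difference was not shown to differ from that at the earlier stages. White adipocyte genes ran -0.11, -0.01, 0.04, -0.50 and 0.27, and the 4 that rose at day 15, Retn, Fabp4, Cidec and Lipe, were all higher in the contrast, Cidec only with day 10 in it. Milk protein genes ran 0.34, 0.21, 0.22, 0.26 and 0.04, and none was called in it.

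**Figure D5:**
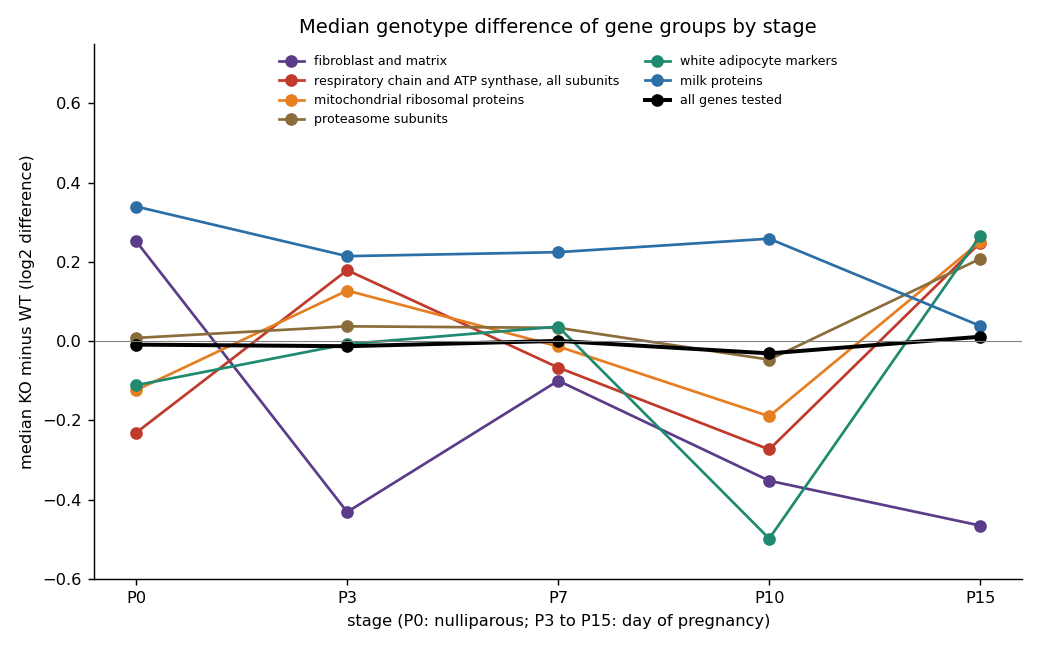
Median KO minus WT log2 difference of 7 gene groups at P0 and pregnancy days 3, 7, 10 and 15. The respiratory and mitochondrial ribosomal medians are 0.25 at day 15 after negative values at day 10, and the fibroblast and matrix median is lowest at day 15, at -0.47.

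Probe sets that carry a single gene symbol and those that do not split differently. Of 21640 probe sets with 1 symbol, 1271 were higher and 891 lower at day 15 when all 34760 probe sets were tested, with a median of 0.01. Of the other 13120, which have several symbols or none, 410 were higher and 1509 lower, with a median of -0.06. The calls of the annotated genes were thus weighted to higher levels in KO glands, and those of the remaining probe sets to lower levels.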

How the data were processed

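The deposited table holds log2 intensities of 34760 probe sets on 37 arrays; the submitters' processing notes name the affy package, with no version, and the sources used here give neither the background correction nor the normalisation. Probe sets were named from the platform annotation: 21640 carry 1 gene symbol, 1321 several and 11799 none. Probe sets with 1 symbol gave 19937 genes, and for the 954 genes with more than 1 probe set the one with the highest mean was kept. Genes above the 25th percentile of the table (4.96) on at least 3 arrays were tested, which kept 16865 and left out 3072. Limma 3.58.1 in R 4.3.3 fitted 1 mean per group over all 37 arrays, so that every group shares 1 spread per gene, with moderated two-sided tests, Benjamini-Hochberg adjustment over all genes tested and a threshold of 0.05. A second contrast took the day 15 difference minus the mean difference at the other stages. The procedure was tested on simulated data, and the number of arrays limits the precision.

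The genes, the 38 lists and the 8 families formed by symbol were chosen with earlier results of these data known, and the families and the mast cell and lymphatic lists after values were seen, so their counts are descriptions without a test. Named genes are Ptpn1, the 15 largest rises and falls among called genes whose groups did not overlap with and without the array labelled KO replicate 3, all milk protein genes, up to 4 called members per list by smallest p (the 2 of highest mean level where none was called) and the 10 smallest p of the second contrast. Genes named beyond this rule, such as Jak2, Insr, Ucp1, Col5a1 or Mir99ahg, were chosen after their values were seen. List levels per array are means of each gene's log2 value minus its mean over all arrays. Alternatives were the filter, all probe sets, quantile normalisation, centring of arrays, the variance prior, array weights, the day 15 arrays alone, the replicate number as a block, and each array left out, and, added after seeing the data, KO replicates 2 and 3 left out together and day 10 left out of the second contrast. The labels number the replicates 1 to 4 in both genotypes. The correlation of same-numbered KO and WT deviations from their group means was -0.14, 0.27, 0.32 and 0.38 for replicates 1 to 4. For KO replicates 2, 3 and 4 the same-numbered WT array was the best match. The labels do not say that equal numbers are pairs or a batch, so the main fit did not use them. Results with the number as a block are given in the last section. RefSeq tables of GRCm38.p6 gave names, gene order and sequences, and 19855 genes matched by gene ID.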

Additional observations from a re-analysis of the deposited data

Results flagged for a closer look

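In groups of 4 arrays, a single array was set apart when its gap to the nearest other array exceeded Dixon's critical share of the group's range. This held for 14 of 322 pairs of a named gene and a genotype, and chance alone gives about 1 in 20. Of the 14, 7 were on the array labelled KO replicate 3, with Ptpn1 at 8.68, Fn1 at 11.49, Ssr3 at 11.22 and Akr1c18 at 6.69, each above the other KO arrays, and Pck1 at 8.34, Ucp3 at 8.12 and Nr1d2 at 8.83, each below them. Named genes were partly chosen from the fit without that array, and Ptpn1 is the gene by which the array was singled out. The count of 7 is therefore not a test of that array. Among the other KO arrays, Ghr was high on replicate 1 at 12.03 and Egfr low on replicate 2 at 9.78. Among WT arrays, Sfrp4 was high on replicate 3 at 7.81, Retn low on replicate 2 at 11.77, Ier3 high on replicate 2 at 6.88, Des high on replicate 1 at 7.02 and Mrpl41 low on replicate 1 at 7.50.

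The genotype difference at day 15 differed from its mean at the other stages in 1399 genes by the limma contrast. The 10 genes of smallest p had contrasts of 1.61 for Uqcr11, 1.17 for Nupr1, 0.72 for Mrps26, 0.78 for Cox6b1, 0.56 for Dctn6, 0.72 for Urm1, 0.86 for Ptms and 0.58 for Rrp1, which were higher at day 15, and -0.89 for Ccnt1 and -0.59 for Lcor, which were lower.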

How the results depend on the processing

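Of 1873 genes called at day 15, the count was 1035 without KO replicates 2 and 3 together, 3330 with array weights and 4081 over all probe sets; leaving out 1 array gave 1294 to 1873. Genes higher in KO glands numbered 1739 after quantile normalisation, 2311 after centring, 2009 with array weights and 596 without KO replicates 2 and 3, and 772 to 1278 with 1 array left out. Genes lower in KO glands numbered 2400 over all probe sets, 337 after centring, 1321 with array weights and 439 without KO replicates 2 and 3, and 422 to 706 with 1 array left out. The contrast of day 15 with the other stages gave 3473 over all probe sets, 2284 after quantile normalisation, 2769 after centring, 3362 with array weights, 976 without day 10 among the other stages and 728 without KO replicates 2 and 3, and 901 to 1415 with 1 array left out. Centring moved the median of all genes in that contrast to 0.13, against 0.02 on the deposited scale, and 92.5% of its calls were then higher, against 67.6%. With the replicate number as a block the day 15 arrays gave 2507 calls, against 2088 without the block, and 7 of the 11 brown adipocyte markers, against 3; Pck1, Pdk4 and Ucp3 passed with it, at limma adjusted p = 0.0289, 0.0157 and 0.0222; KO replicate 1 correlated best with WT replicate 2 and the other KO arrays with their own number. None of the 105 named genes called changed sign in any alternative, while 18 of the 56 not called did, among them Csn1s1, at -0.04 and at 0.04 after centring. Of the 105, 78 were called in each of the 8 leave-one-out fits. Of 47 list medians, 23 moved by more than their spread under some alternative. The number of arrays limits what small differences can pass. Values near 4.96 are close to the filter and those near 13 close to the top of the scale, so differences there are uncertain.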
